A study of Drosophila melanogaster with 3 samples.

Results

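Of the 6127 summits in the thresholded su(Hw) peak list of Drosophila melanogaster embryos, 1227 (20%, 95% interval 19.0 to 21.1) lay at divergent promoters, where a pair of genes starts in opposite directions from one stretch of DNA. A summit, the point of highest enrichment in a peak, was counted there when it fell between 1000 bp upstream and 100 bp downstream of a protein-coding transcript start on the plus strand and, by the same window, of one on the minus strand. These divergent summits made up 39.3% (37.6 to 41.1) of the 3119 summits in any such promoter window. The other 1892 promoter summits had starts of 1 strand only and are called one-direction summits here, and 3008 summits lay outside promoter windows. The divergent summits touched 2208 of 13986 protein-coding genes, of which 680 (30.8%) are known only by a CG number.

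The peaks come from chromatin immunoprecipitation sequencing of 3 biological replicates of 1 group, so there is no contrast between conditions. The embryos were whole, 0 to 24 hours old and mixed in sex, from the strain SuHw-GFP, a transgenic line with GFP fused to the C terminus of su(Hw), precipitated by way of GFP. Of the labels, the description names an anti-GFP antibody and the antibody entry su(Hw). Peaks are thus places enriched by precipitation of the tagged protein, averaged over all embryonic cells and stages. The peak lists alone cannot tell direct binding from indirect binding or from nonspecific enrichment. Read numbers are unknown, so all comparisons rest on counts of summits or genes, and every interval covers counting error only. The intervals are exact (Clopper-Pearson) for shares and conditional for odds ratios, at 95%.

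Suppressor of Hairy-wing is a zinc finger protein best known from the gypsy insulator, where it binds DNA directly and carries the partner proteins Mod(mdg4) and CP190. Divergent gene pairs are common in the compact fly genome, and their shared promoter is typically a short nucleosome-poor stretch, often used by housekeeping genes. Other proteins are known for such promoters. BEAF-32 is an insulator protein that binds clustered CGATA, DREF binds the overlapping sequence TATCGATA, and M1BP binds Motif 1. The GAGA factor binds GA repeats, often at promoters with paused polymerase, and Zelda binds CAGGTAG at early embryonic enhancers.

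The following 4 sets of summit sequences are examples of what the divergent promoters held: the su(Hw) consensus, TATCGATA, GGTCACAC, or none of these within the bases printed. Each is the plus strand of dm6 (Release 6), with 60 bases on either side of the summit base, read 5′ to 3′, and none overlaps an annotated exon. In each set the strongest eligible summits were taken, from 559 windows that met these conditions. Of the 559, only 6 held an exact consensus and 22 held TATCGATA, so the sets are not in proportion to their frequency. One chromosome arm was not used for these windows, although it holds some of the strongest summits. The first set has an exact 12-base su(Hw) consensus, on either strand, in capitals.
Ugt316A1/Sfxn2, chr3L:19063004-19063124: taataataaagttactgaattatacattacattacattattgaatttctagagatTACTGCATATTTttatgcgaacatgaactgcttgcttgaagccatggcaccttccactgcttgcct
CG6933/CG17145, chr3L:20221053-20221173: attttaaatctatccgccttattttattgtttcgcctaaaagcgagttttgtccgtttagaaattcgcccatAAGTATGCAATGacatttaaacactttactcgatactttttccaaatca
Ppox/slo, chr3R:24662163-24662283: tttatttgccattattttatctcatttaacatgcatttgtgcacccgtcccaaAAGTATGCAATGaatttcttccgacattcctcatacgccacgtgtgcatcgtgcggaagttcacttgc
vari/CG9328, chr2L:20797456-20797576: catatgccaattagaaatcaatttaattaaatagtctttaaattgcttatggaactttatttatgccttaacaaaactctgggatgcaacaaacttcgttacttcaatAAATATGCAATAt

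The second set has TATCGATA, the DNA replication-related element bound by DREF, in capitals. It reads the same on both strands.
RpS25/CG4820, chr3R:11216316-11216436: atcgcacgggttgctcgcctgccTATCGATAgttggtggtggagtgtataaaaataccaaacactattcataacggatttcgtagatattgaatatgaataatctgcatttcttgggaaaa
RpL28/eIF1, chr3L:3222978-3223098: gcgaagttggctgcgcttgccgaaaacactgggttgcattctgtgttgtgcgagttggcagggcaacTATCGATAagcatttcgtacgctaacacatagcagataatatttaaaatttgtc
CG9636/CG18749,CG33722, chr3R:8243816-8243936: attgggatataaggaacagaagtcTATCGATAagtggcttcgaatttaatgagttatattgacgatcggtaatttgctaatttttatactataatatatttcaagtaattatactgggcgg

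The third set has GGTCACAC, the core of promoter Motif 1 bound by M1BP, in capitals.
Dpm1/CG10137, chr2L:19526553-19526673: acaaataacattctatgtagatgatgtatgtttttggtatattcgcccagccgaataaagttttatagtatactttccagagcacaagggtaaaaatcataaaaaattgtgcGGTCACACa
PIG-C/CG12016,Dpm2, chr3L:3319282-3319402: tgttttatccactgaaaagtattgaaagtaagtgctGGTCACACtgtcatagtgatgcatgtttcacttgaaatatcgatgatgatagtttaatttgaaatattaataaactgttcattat

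The fourth set has no capitals, since the window held neither a su(Hw) consensus with up to 1 mismatch nor its core, and no site of the BEAF-32, DREF or M1BP kinds. These are nevertheless strong summits, with ranks of 278, 335 and 434 among 6127, and 362 of the 559 windows were of this kind. The last of the 3 has a su(Hw) consensus with 1 mismatch beyond the bases printed but within 100 bp of its summit.
Ank2/Mcad, chr3L:7718618-7718738: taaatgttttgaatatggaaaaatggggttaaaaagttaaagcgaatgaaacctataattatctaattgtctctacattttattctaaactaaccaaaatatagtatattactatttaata
CG14400/bero, chr2L:20858539-20858659: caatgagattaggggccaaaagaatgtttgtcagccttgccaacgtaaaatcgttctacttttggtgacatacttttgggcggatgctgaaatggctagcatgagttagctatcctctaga
CG3164/Gs1, chr2L:131224-131344: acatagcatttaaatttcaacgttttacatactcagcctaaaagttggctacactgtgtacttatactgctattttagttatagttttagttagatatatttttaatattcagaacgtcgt

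The centre of the capitals lay 0.5, 17.5, 1.5 and 53.5 bp from the summit in the first set, in the order printed. In the second set the distances were 33.5, 10.5 and 32.5 bp, and in the third 55.5 and 20.5 bp. A match is a description of the letters and does not show which protein was bound.

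A su(Hw) summit lay far more often in the promoter window of genes with a divergent partner than of genes without one. For this comparison each of the 13945 protein-coding genes on the chromosomes had 1 promoter window, that of its most upstream start, and a partner was an opposite-strand gene whose window overlapped it head to head. A summit lay in the own window of 2149 of 5842 genes with a partner (36.8%, 35.5 to 38.0), against 1118 of 8103 genes without one (13.8%, 13.1 to 14.6). The background over all these genes was 23.4%. In pairs the own window also covers part of the promoter of the partner, and at gaps under 1000 bp its start too. The part of this in the shares, here and by gap below, was not tested. The odds ratio was 3.64 (3.34 to 3.95) and p = 3.78e-218 in a two-sided Fisher's exact test. With the strongest 6127 peaks of each replicate in place of the thresholded list, the shares were 36.9%, 37.2% and 35.3% with a partner in replicates 1, 2 and 3, against 12.7%, 13.9% and 13.1% without one. Every replicate was higher with a partner, with a mean of 36.5% ± 1.04 against 13.2% ± 0.642 (SD, n = 3). Both genes of a pair share summits, but with only the plus-strand gene of each pair counted the odds ratio was 3.63 (3.29 to 4.01). Genes without a partner could still have other genes in their window. Where that window had to be free of other protein-coding genes, 12.4% had a summit and the odds ratio was 4.13 (3.67 to 4.64).

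The share depended on how far apart the starts of the pair lay. It was highest at a gap of 200 to under 400 bp, where 916 of 1687 genes (54.3%, 51.9 to 56.7) had a summit. At 0 to under 200 bp it was 33.1% (30.5 to 35.7), at 400 to under 600 bp 39.8% (36.5 to 43.3) and at 600 to under 1000 bp 30.6% (27.4 to 33.9). At 1000 to 2000 bp, 18.0% (15.8 to 20.4) of genes had a summit, beside the 13.8% of genes without a partner. Against those genes each of these 5 gaps passed, with odds ratios between 1.37 and 7.42 and adjusted p between 8.34e-257 and 3.32e-04 (Fisher's exact tests, two-sided, adjusted over 6 gaps by Benjamini-Hochberg). The 101 genes whose starts crossed those of the partner did not pass, with 20.8% (13.4 to 30.0) and an adjusted p = 0.0579 in the same exact test. The replicates gave 55.2%, 53.2% and 52.7% at 200 to under 400 bp, all above the 42.8%, 39.1% and 39.0% at 400 to under 600 bp.

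**Figure D1:**
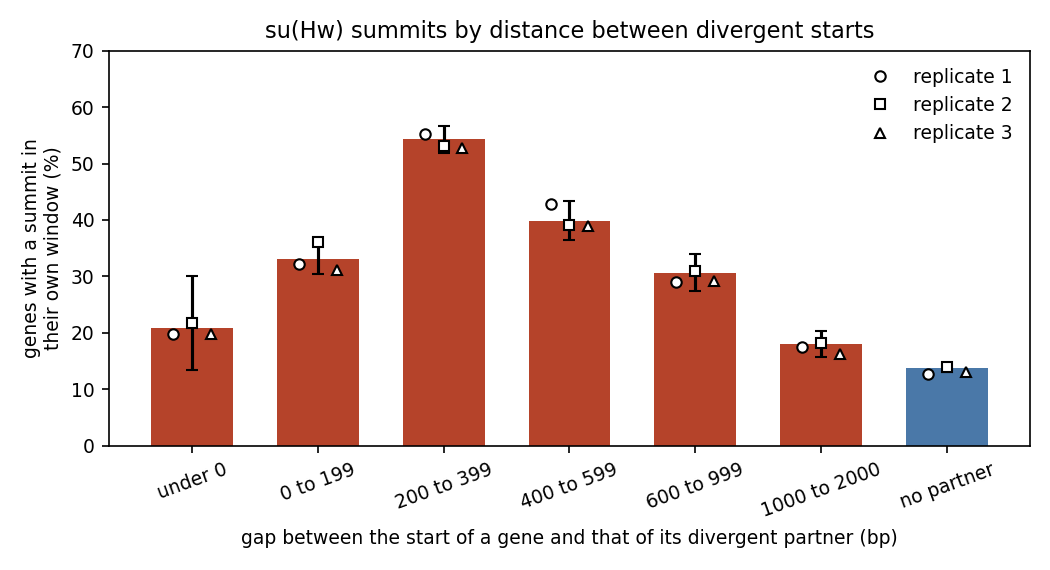
Share of protein-coding genes with a su(Hw) summit in their own promoter window (%), by the distance between the start of the gene and that of its divergent partner (bp), with genes without a partner on the right. Bars are the thresholded list with 95% exact intervals and symbols are the strongest 6127 peaks of each replicate. The bar at 200 to under 400 bp reaches 54.3%, against 13.8% without a partner.

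At the divergent promoters that carried a summit, the gap between the nearest starts of the pair had a median of 331 bp, with quartiles of 237 and 509 bp. Of the 1227 summits, 559 (45.6%) had a gap of 200 to under 400 bp and 58 a gap of 1000 bp or more. Most summits, 1058 of them (86.2%, 84.2 to 88.1), lay between the starts of the pair. The nearer start was a median of 92.0 bp away and the farther one 247 bp. Either strand could be nearer, the plus-strand start at 653 summits and the minus-strand start at 571. At gaps of 300 bp or more, 240 of 698 summits (34.4%, 30.9 to 38.0) fell in the central one of 3 equal stretches between the starts. At narrower gaps the share was 217 of 526 (41.3%, 37.0 to 45.6). The distance to the nearer start grew with the gap, with medians of 35.0 bp at gaps under 200 bp, 91.0 bp at 200 to under 400 bp, 132 bp at 400 to under 600 bp, 143 bp at 600 to under 1000 bp and 356 bp at 1000 bp or more. One-direction summits were spread more widely upstream, with a median of 207 bp to the nearest start. Within 100 bp of a start lay 682 divergent summits (55.6%), against 517 one-direction summits (27.3%). These distances are partly set by the definition, since a place with starts on both strands has more starts near it, and were not tested.

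**Figure D2:**
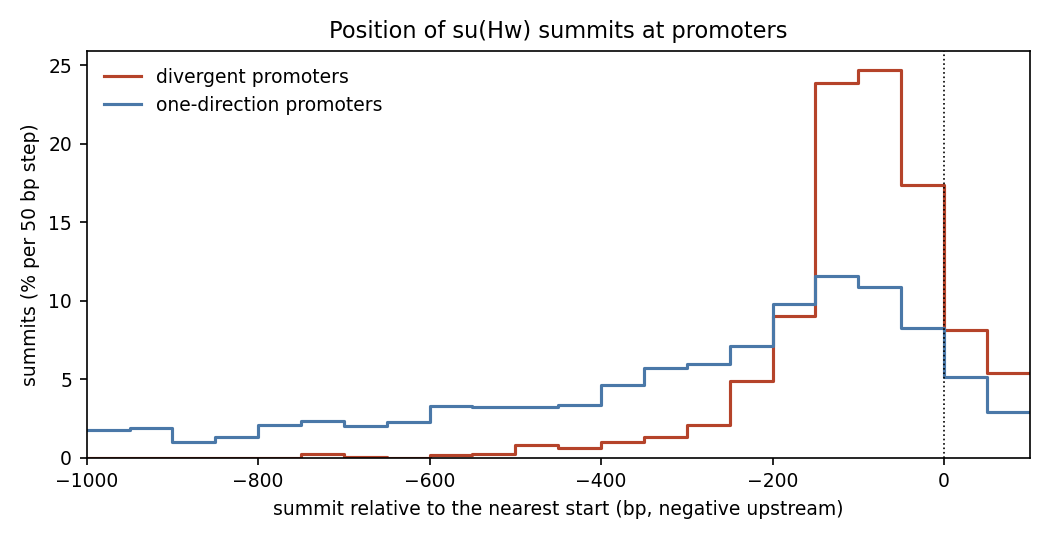
Position of su(Hw) summits relative to the nearest protein-coding start (bp, negative values upstream), as the percent of summits in each step of 50 bp. The curve for divergent promoters peaks at 24.7% between 100 and 50 bp upstream, and that for one-direction promoters at 11.6% between 150 and 100 bp upstream.

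The edge of the definition was thinly filled. The farther start lay in the last 100 bp of its window at 25 divergent summits, whose median rank by strength was 2548. Just outside, 37 one-direction summits had an opposite start that missed the window by up to 100 bp, with a median rank of 3090.0. The su(Hw) consensus with up to 1 mismatch was at 4 of the 25 and at 5 of the 37.

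The binding sequence of su(Hw) itself was scarce at divergent promoters. Within 100 bp of the summit, the 12-base consensus with up to 1 mismatch was at 95 of 1227 divergent summits (7.74%, 6.31 to 9.38), against 265 of 1892 one-direction summits (14%, 12.5 to 15.7) and 964 of 3008 summits outside promoters (32.0%). Over all thresholded summits the share was 21.6%. The odds ratio of divergent to one-direction summits was 0.515 (0.398 to 0.662), and the adjusted p was 1.19e-07 in a two-sided Fisher's exact test. Here and below, adjusted values are by Benjamini-Hochberg over the 8 sequences searched. Exact matches were at 15 divergent summits (1.22%), against 77 one-direction summits (4.07%), with an odds ratio of 0.292 (0.155 to 0.515) and an adjusted exact test p = 3.25e-06. The core TGCATA alone was at 14.2% of divergent and 17.6% of one-direction summits, with an adjusted p = 0.0129 in the exact test. The strongest peaks of each replicate gave 7.56% ± 0.153 at divergent and 14.1% ± 0.877 at one-direction summits (SD, n = 3) for the consensus with up to 1 mismatch.

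Sequences of other promoter proteins were more frequent there. Pairs of CGATA within 40 bp of each other on either strand, the kind of site bound by BEAF-32, were at 285 divergent summits (23.2%, 20.9 to 25.7), against 208 one-direction summits (11%, 9.62 to 12.5). Outside promoters they were at 1.66% of summits and over the whole list at 8.86%. The odds ratio of divergent to one-direction summits was 2.45 (2.00 to 2.99), with an adjusted p = 1.36e-18 in the exact test. TATCGATA, in which CGATA can be read on both strands and which therefore always counts as a pair, was at 147 divergent summits (12%, 10.2 to 13.9), against 94 one-direction summits (4.97%, 4.03 to 6.05). Its share over the list was 4.18%, and the odds ratio was 2.60 (1.97 to 3.45) and the adjusted p = 5.24e-12 in the exact test. Pairs without TATCGATA, looked at after these values were seen, were at 11.2% of divergent and 6.03% of one-direction summits, with an odds ratio of 1.98 (1.51 to 2.59), which gave p = 2.68e-07 in the exact test. In the replicates the pairs were at 22.2% ± 1.13 of divergent and 10.6% ± 1.06 of one-direction summits (SD, n = 3).

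GGTCACAC, the core of Motif 1, was at 82 divergent summits (6.68%, 5.35 to 8.23), against 78 one-direction summits (4.12%, 3.27 to 5.12) and 2.73% of the list. The odds ratio was 1.67 (1.20 to 2.32) and the adjusted p = 0.00270 in the exact test. The GAGA factor sequence GAGAGAG went the other way, with 13 divergent summits (1.06%, 0.565 to 1.80), against 111 one-direction summits (5.87%, 4.85 to 7.02). Its odds ratio was 0.172 (0.0883 to 0.308) and the adjusted p = 1.52e-12 in the exact test. CAGGTAG, the Zelda sequence, was at 6 divergent summits (0.489%) and 16 one-direction summits (0.846%) and did not pass, with an odds ratio of 0.576 (0.184 to 1.56) and an adjusted p = 0.281 in the exact test. At least 1 of the consensus, the CGATA pair, TATCGATA and GGTCACAC was at 428 divergent summits (34.9%, 32.2 to 37.6), against 514 one-direction summits (27.2%, 25.2 to 29.2). The consensus and the CGATA pair met at 13 divergent summits, and the consensus and GGTCACAC at 5.

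**Figure D3:**
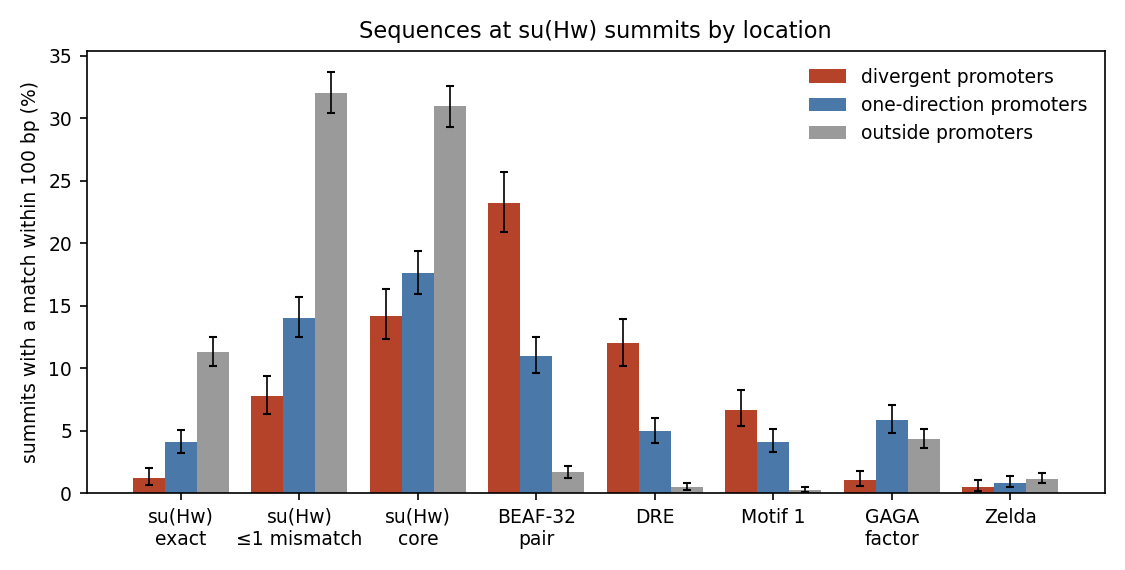
Percent of su(Hw) summits with a match to each searched sequence within 100 bp, at divergent promoters, one-direction promoters and outside promoters, with 95% exact intervals. The su(Hw) sequences are lowest at divergent promoters (7.74% with up to 1 mismatch, against 14% and 32.0%), and the BEAF-32 pair (CGATA pair) and DRE (TATCGATA) are highest there.

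Divergent summits lay closer to starts and were poorer in G and C. Among summits of either class within 250 bp of a start, the consensus was at 6.89% of 1146 divergent and 10.1% of 1057 one-direction summits, with an adjusted p = 0.0144 in the exact test. CGATA pairs were at 24.5% of divergent and 17.4% of one-direction summits (odds ratio 1.54, adjusted p = 1.80e-04, exact test). TATCGATA was at 12.7% of divergent and 7.85% of one-direction summits (adjusted p = 5.38e-04, exact test). GAGAGAG was at 1.05% of divergent and 6.05% of one-direction summits (adjusted p = 3.09e-10, exact test). GGTCACAC lost its call within 250 bp, with 6.98% of divergent and 6.72% of one-direction summits, an odds ratio of 1.04 (0.738 to 1.47) and an adjusted p = 0.866 in the exact test. TGCATA lost its call too, with 13.5% of divergent and 13.2% of one-direction summits (adjusted p = 0.866, exact test). The sequence within 100 bp of the summit had a median GC content of 34.3% at divergent and 37.3% at one-direction summits. Below the promoter median of 35.8% lay 58.2% of divergent and 41.9% of one-direction summits, an odds ratio of 1.93 (1.66 to 2.24) with p = 5.94e-19 in the exact test, a comparison made after these medians were seen. The cut at 250 bp did not make the classes alike. Within it, 682 of the 1146 divergent and 517 of the 1057 one-direction summits lay within 100 bp of a start. By definition divergent summits also have starts of both strands near them, and 39.9% of all divergent summits lay within 200 bp of both. The parts of the distance to starts, the number of starts and base composition in the sequence counts were not tested.

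Where the sequences lay within the promoter differed by kind. TATCGATA at divergent summits was a median of 30.5 bp from a start, and 93.9% of the 147 were within 100 bp of one. GGTCACAC was a median of 19.0 bp from a start. The su(Hw) consensus with up to 1 mismatch lay a median of 108 bp from a start and 35.5 bp from the summit, against 46.5 bp from the summit for TATCGATA and 54.5 bp for GGTCACAC. One-direction summits gave the same order. Their medians to a start were 51.5 bp for TATCGATA, 31.5 bp for GGTCACAC and 354 bp for the consensus. To the summit they were 39.5, 44.5 and 25.5 bp, so the consensus lay closer to the summit there than at divergent summits. These distances were not tested.

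The gap between the starts also sorted the divergent promoters, in a split at 400 bp chosen after the values were seen. TATCGATA was at 15.3% of the 769 summits with a gap under 400 bp and at 6.33% of the 458 with a wider gap, an odds ratio of 2.68 (1.74 to 4.25) with p = 1.21e-06 in a two-sided Fisher's exact test. CGATA pairs were at 27.6% of summits with narrow and 15.9% with wide gaps (p = 2.59e-06, exact test). The consensus leaned the other way, with 6.50% at narrow and 9.83% at wide gaps (p = 0.0463, exact test, unadjusted), and reached 11 of 58 summits (19.0%, 9.87 to 31.4) at gaps of 1000 bp or more. GGTCACAC was at 6.89% with narrow and 6.33% with wide gaps and did not pass (odds ratio 1.09, 0.672 to 1.82, p = 0.725, exact test). Summits at narrow gaps lay nearer to a start, with a median of 91.0 bp at 200 to under 400 bp and 132 bp at 400 to under 600 bp. The search within 100 bp of the summit therefore reached a start more often at narrow gaps. The part of this in the shares by gap was not tested.

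Divergent promoters with a thresholded summit were also set against divergent promoters with a weaker peak or none. The weaker peaks were the 20682 unthresholded peaks in the pooled list with no thresholded summit within 1 kb. Divergent promoters held 1227 thresholded peaks (20%) and 968 of the unthresholded peaks (4.68%), an odds ratio of 5.10 (4.66 to 5.59) with p = 4.62e-271 in the exact test. Among promoter peaks alone the shares were 39.3% of the thresholded and 19.6% of the unthresholded peaks, an odds ratio of 2.66 (2.40 to 2.94) with p = 3.51e-82 in the exact test. The 1 kb rule takes weaker peaks out of promoters that hold a thresholded summit, so these shares and odds ratios are partly set by it. The size of that part was not tested. At divergent promoters the consensus was at 7.74% of the thresholded and 4.34% of the unthresholded peaks (odds ratio 1.85, 1.26 to 2.76, adjusted p = 0.00394, exact test), and TGCATA at 14.2% of the thresholded and 9.40% of the unthresholded peaks (adjusted p = 0.00394, exact test). The promoter sequences did not pass. CGATA pairs were at 23.2% of the thresholded and 21.1% of the unthresholded peaks (odds ratio 1.13, 0.920 to 1.40), and TATCGATA at 12% of the thresholded and 10.2% of the unthresholded peaks (1.19, 0.905 to 1.58). GGTCACAC was at 6.68% of the thresholded and 9.19% of the unthresholded peaks (odds ratio 0.707, 0.511 to 0.979, adjusted p = 0.0814, exact test).

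The second set was gene pairs with a gap of 200 to under 400 bp, the gap at which summits were most frequent, taken as pairs whether or not they had a summit. Of 822 such pairs, 423 had one. The stretch between the starts, with 50 bp on either side, held a CGATA pair in 46.6% of pairs with a summit and 38.3% of pairs without (odds ratio 1.40, 1.05 to 1.87, adjusted p = 0.159, exact test). The consensus was in 11.6% of pairs with and 11.5% of pairs without a summit (odds ratio 1.01, 0.640 to 1.58). None of the 8 sequences passed after adjustment, and the unadjusted exact test gave p under 0.05 for the CGATA pair alone. Median GC content was 35.3% with and 35.6% without a summit. This comparison was added after the values by gap were seen.

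Strength was ranked by the signal that the authors' peak caller gave each peak, rank 1 being the strongest of 6127. The median rank was 3169 for divergent and 3159.5 for one-direction summits, and 49.8% of divergent and 50.2% of one-direction summits ranked above the promoter median, with an odds ratio of 0.986 (0.851 to 1.14), which gave p = 0.855 in Fisher's exact test. With the strongest 6127 peaks of each replicate, the shares were 49.0%, 47.4% and 48.5% of divergent summits in replicates 1, 2 and 3. Those of one-direction summits were 50.7%, 51.7% and 50.9%. Every replicate was lower for divergent summits, with a mean difference of -2.76 ± 1.33 percentage points (SD, n = 3). The classes lay further apart at the top of the list. Only 47 divergent summits (3.83%, 2.83 to 5.06) were among the strongest 613, against 189 one-direction summits (9.99%, 8.67 to 11.4), an odds ratio of 0.359 (0.253 to 0.501) with p = 4.25e-11 in the exact test, a comparison chosen after the ranks were seen. At the weak end 9.45% of divergent and 10.6% of one-direction summits were in the last 613 (odds ratio 0.878, 0.684 to 1.12, p = 0.303, exact test). Divided into 10 steps by strength, the list held 7.67% divergent summits in its strongest step and most, 26.1%, in step 5. The comparison at the median changed with the set of summits. Among summits top-ranked in both of a pair of replicates, a smaller share of divergent than of one-direction summits was above the median of that set, with odds ratios of 0.805, 0.774 and 0.762 and p between 0.00145 and 0.0106 in exact tests.

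Within the divergent summits the consensus moved with strength. It was at 46 of the strongest 409 (11.2%, 8.35 to 14.7), 28 of the middle 409 (6.85%) and 21 of the weakest 409 (5.13%, 3.21 to 7.74), with an odds ratio of strongest to weakest of 2.34 (1.34 to 4.21) and an adjusted p = 0.00619 in the exact test. Without replicate 3 it did not pass, with an odds ratio of 1.72 (0.979 to 3.08) and an adjusted p = 0.125 in the exact test. GGTCACAC differed the opposite way, with 13 of the strongest (3.18%) and 34 of the weakest 409 (8.31%), an odds ratio of 0.363 (0.173 to 0.718) and an adjusted p = 0.00619 in the exact test. It did not follow strength steadily. Over the 10 steps of the list, GGTCACAC was at 8.51% of divergent summits in step 1 and 0.917% in step 2. The share was 11.9% in step 6 and 1.72% in step 10, the weakest. CGATA pairs were found in 18.3% of the strongest 409 and 24.4% of the weakest 409, which did not pass (adjusted p = 0.0649, exact test). TATCGATA was found in 9.78% of the strongest 409 and 12.7% of the weakest 409, which did not pass (adjusted p = 0.298, exact test). When the whole list was cut in 3 equal parts by strength, CGATA pairs were more frequent at divergent than at one-direction summits in each part, with 15.2% against 5.54%, 27.1% against 11.6% and 24.9% against 15.6% from the strongest to the weakest part. Each adjusted p of these exact tests was 2.66e-04 or lower. For these parts of the list, values were adjusted over the 3 parts for each sequence. The consensus was less frequent at divergent summits in the strongest part, with 12.2% against 24.8% (adjusted p = 9.22e-06, exact test, adjusted over the 3 parts). It did not pass in the other parts, with 6.77% against 10.1% in the middle (odds ratio 0.643, 0.402 to 1.01) and 5.29% against 7.13% in the weakest (0.727, 0.406 to 1.26). GGTCACAC passed in none of the parts, with 2.44% of divergent against 0.949% of one-direction summits in the strongest, 7.97% against 4.49% in the middle and 8.56% against 6.83% in the weakest (adjusted p = 0.131, 0.0662 and 0.334, exact tests).

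**Figure D4:**
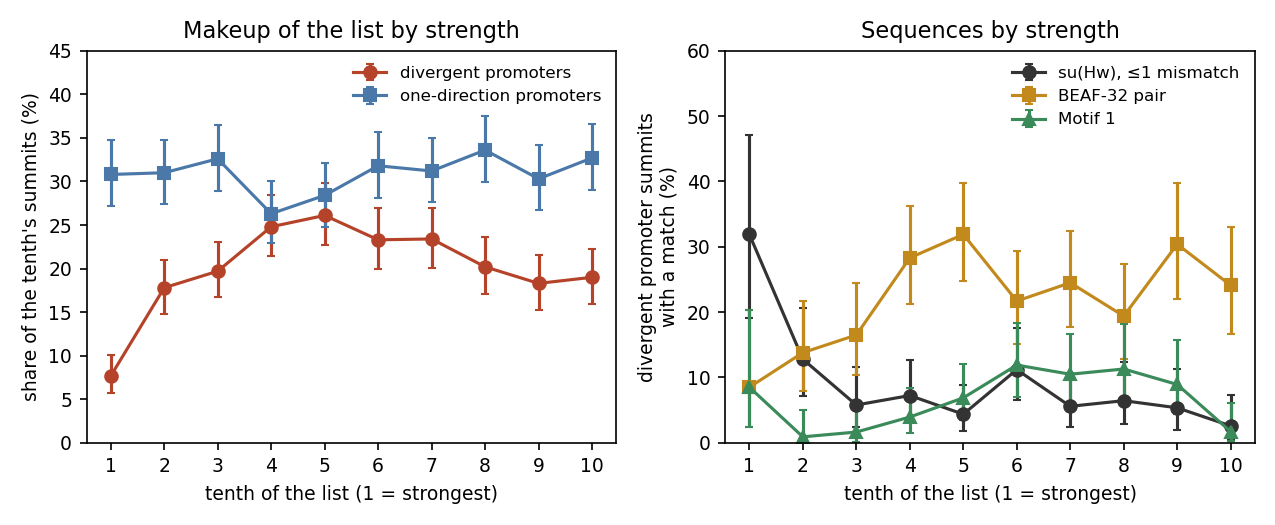
Left, percent of the summits in each of 10 equal steps of the list, 1 being the strongest, that lay at divergent or one-direction promoters. Right, percent of divergent summits in each step with the su(Hw) consensus with up to 1 mismatch, a BEAF-32 pair (CGATA pair) or Motif 1 (GGTCACAC), with 95% exact intervals in both plots. Divergent summits are 7.67% of the strongest step, and 31.9% of those few carry the consensus.

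Recovery in the replicates was not shown to differ between divergent and one-direction summits. A top-ranked peak, one of the strongest 6127 of a replicate, lay within 200 bp in all 3 replicates for 853 divergent summits (69.5%, 66.9 to 72.1), against 1282 one-direction summits (67.8%, 65.6 to 69.9). The odds ratio was 1.09 (0.927 to 1.27), with p = 0.305 in Fisher's exact test, and the share over the whole list was 69.3%. Another 280 divergent summits were top-ranked in 2 replicates, 89 in 1 and 5 in none, and 96.9% had a peak in all 3 whole lists of 30000. The list was made from these replicates, so high shares follow in part from that choice. A top-ranked peak of a neighbouring summit within 200 bp also counts as recovery. At FucTB and scat, the summit of rank 4827 counted in all 3 replicates, although its nearest peak in replicate 1 ranked 21010. The part of such neighbours in the shares was not tested. Ranks of the matched divergent summits correlated with Spearman's rho of 0.713, 0.788 and 0.722 between replicates 1 and 2, 1 and 3, and 2 and 3, as a description across summits. The highest replicate rank of a divergent summit was a median of 1.56 times the lowest.

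The strongest divergent summit lay between Drat, which encodes a protein with an alcohol dehydrogenase domain, and Cyt-b5, which encodes the electron carrier cytochrome b5. It spanned 7532903 to 7533815 on 2R (dm6), in a gap of 525 bp, had rank 13 and an exact consensus, and ranked 11, 17 and 15 in replicates 1, 2 and 3, with signals of 3208, 3355 and 5294. The next, between CG2790 and CG12851, had rank 28 and ranks of 28, 21 and 31 in the replicates, and no searched sequence near its summit. Rank 30 was between imd, which encodes the adaptor of the immune pathway against Gram-negative bacteria, and Dp1, which encodes a KH domain RNA-binding protein, with ranks of 34, 32 and 22 and again none of the sequences. No replicate placed any of the 3 below rank 34.

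Rank 38 lay 24 bp from the start of GXIVsPLA2, a secreted phospholipase gene that faces Pka-C3, a kinase gene of the protein kinase A type, and ranked 36, 39 and 35 in the replicates. Rank 52 lay 41 bp downstream of the start of CG3104, which faces RpS21, a gene of the small ribosomal subunit. Its peak spanned 2855123 to 2856332 on 2L, with ranks of 55, 58 and 48. This summit had both an exact su(Hw) consensus and GGTCACAC. A second summit, of rank 195, lay in the gap of 292 bp between the 2 starts. Rank 83 lay between Mad1, a spindle checkpoint gene, and Drep2, with a CGATA pair and ranks of 90, 94 and 74. The consensus of rank 84, between the glycosyltransferase gene Ugt316A1 and the mitochondrial carrier gene Sfxn2, is the first sequence printed above, and the replicates ranked it 75, 89 and 84.

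The other 8 of the strongest 15 had ranks from 88 to 179. They lay at CG4622 and CG11413 (exact consensus and CGATA pair), at IM18, CG10332 and the aquaporin-type channel gene Eglp1, and at Pax, the gene of the focal adhesion protein paxillin, with Lectin-galC1. Further down were Rpn13, which encodes a ubiquitin receptor of the proteasome, with the cathepsin gene CtsL1, then ATPCL, the gene of ATP citrate lyase, with Tmem131, and CG6933 with CG17145. The last were Dpm1, a gene of dolichol-phosphate mannose synthesis, with CG10137, and Use1, a SNARE gene of vesicle fusion, with nwk, whose product shapes membranes at synapses. Of all 15, 5 had an exact consensus, and the gap between the starts ran up to 1394 bp at CG6933 and CG17145.

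**Figure D5:**
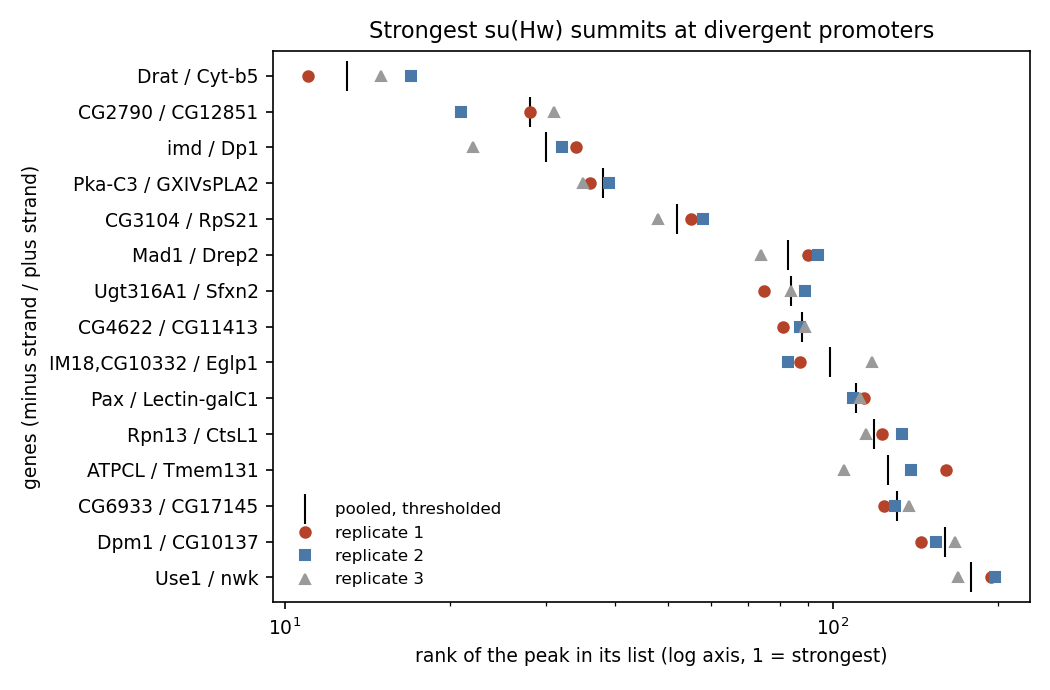
Rank of the 15 strongest su(Hw) summits at divergent promoters in the pooled thresholded list (bars) and in the 3 replicates (symbols), on a log axis, 1 being the strongest. The genes are named with the minus-strand gene first. Replicate ranks stay near the pooled one, from 11, 17 and 15 at Drat and Cyt-b5 to 194, 198 and 169 at Use1 and nwk.

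Gene lists made by symbol show which gene kinds share their promoters with a su(Hw) summit, beside 15.8% of all protein-coding genes. Cytosolic ribosomal protein genes led, with 46 of 92 (50%) at a divergent summit, and mitochondrial ribosomal protein genes followed with 33 of 73 (45.2%). Then came splicing and mRNA processing with 23 of 56 (41.1%) and vesicle transport and nuclear pore with 44 genes (36.4%). The splicing list, made by symbol, also takes in genes of the signal recognition particle such as Srp14. These lists also hold many divergent genes: 63.0% of cytosolic and 78.1% of mitochondrial ribosomal protein genes had a divergent partner, against 41.9% of all genes. Among genes with a partner, 45 of 58 cytosolic ribosomal protein genes (77.6%) had a summit in their own window, beside 36.8% of all genes with a partner. Cytosolic ribosomal protein genes without a partner had one almost as often, in 24 of 34 cases (70.6%), beside 13.8%. Mitochondrial ribosomal protein genes had one in 30 of 57 cases with a partner (52.6%) and 4 of 16 without (25%).

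The other housekeeping lists lay on both sides of the 36.8% of all genes with a partner. Of genes with a partner, a summit was in the own window of 46 of 84 vesicle transport genes (54.8%), 23 of 46 splicing genes (50%), 19 of 46 respiratory chain genes (41.3%) and 27 of 68 basal transcription genes (39.7%). It was 22 of 59 for translation factors and aminoacyl-tRNA synthetases (37.3%), 10 of 28 for proteasome subunits (35.7%), 6 of 21 for heat shock proteins and chaperones (28.6%) and 10 of 36 for replication and cell cycle genes (27.8%). At the far end, 3 of 33 chemosensory receptor genes with a partner (9.09%) and 0 of 15 Cpr cuticle protein genes had one, where a count of 0 allows a share of up to 20%. Lists are given as counts, with no test.

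The strongest sites of these lists ranged widely in rank. The strongest of the cytosolic ribosomal list was RpS21 at rank 52 and that of the proteasome list Rpn13 at rank 119. That of the translation factor list was eIF2Bbeta, which encodes a subunit of a translation initiation factor, at rank 290. The RpS21 and eIF2Bbeta summits lay nearer the start of the partner gene, 41 bp from that of CG3104 and 26 bp from that of Ugalt. RpL7 and Ripalpha, whose starts are only 30 bp apart, shared a summit of rank 601 with GGTCACAC, and the replicates ranked it 574, 623 and 635. The strongest mitochondrial ribosomal summit lay between mRpL41 and CG8079, with rank 430 and ranks of 392, 490 and 462. Use of one summit by genes of different lists occurred at Nelf-E, a subunit gene of the pausing complex NELF, and RpL14 (rank 920, with 993, 867 and 970 in the replicates), and at RpS27 and the nuclear pore gene Nup37 (rank 925, with 785, 955 and 1081). Hsp83, the gene of the fly Hsp90, shared a summit of rank 993 with CG14965, for which replicate 2 at 1639 stood below replicates 1 and 3 at 814 and 920. Gr64a, a sugar receptor gene, was 1 of the 3 chemosensory genes, with CG11594 at rank 2101 and ranks of 3213, 1933 and 1791.

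Genes of proteins that act at insulators and promoters were among the pairs. Cp190, whose product is a partner of su(Hw), shared its promoter with CG4338 and had a summit of rank 1108 without a consensus, at 15275195 to 15275554 on 3R. Its ranks were 1587, 3136 and 1049 in replicates 1, 2 and 3, so replicate 2 stood apart. The summit with the most genes, 10, lay within the mod(mdg4) locus, where the annotation lists the separately transcribed pre-mod(mdg4) fragments on both strands as genes of their own. It had rank 1450 and ranks of 1235, 2120 and 1491. CTCF, BEAF-32, Ibf1 and Ibf2 were not among the genes at divergent summits.

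Other such genes were named after the values were seen. The summit of Chro / Ssl1, at the gene of the chromodomain protein Chromator and that of a TFIIH subunit, had rank 395, with 324, 503 and 390 in the replicates. The summit of M1BP / CG8202, at the gene of the Motif 1 binding protein, had rank 1148, with 1191, 1467 and 1043. The summit of Dref / RpL13, at the gene of the TATCGATA binding protein, had rank 1732, with 1712, 2066 and 1825. None of the 8 searched sequences lay within 100 bp of these 3 summits.

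The strongest divergent summits of the remaining arms lay at CG7582 and the guanylate cyclase gene Gycalpha99B on 3R (rank 227), at the UDP-galactose transporter gene Ugalt and eIF2Bbeta on X (rank 290) and at CG32017 and the kinesin gene Kif3C on chromosome 4 (rank 1259). Counts by arm were 237 on 2L, 250 on 2R, 262 on 3L, 329 on 3R, 147 on X and 2 on chromosome 4. On X, 255 of 881 genes with a divergent partner had a summit in their own window (28.9%, 26.0 to 32.1), against 38.2% of the 4961 such genes elsewhere. The odds ratio was 0.660 (0.562 to 0.773), with p = 1.29e-07 in Fisher's exact test, in a comparison made after the values were seen. The 4 large autosomal arms ranged from 35.2% on 2L to 40.7% on 3L.

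Some divergent promoters held more than 1 summit. The 1227 summits fell on 1068 distinct sets of genes, of which 153 had 2 summits and 3 had 3. Another thresholded summit lay within 1 kb of 29.5% of divergent and 30.8% of one-direction summits (odds ratio 0.942, 0.802 to 1.11, p = 0.473, Fisher's exact test). Summits so close together can match the same replicate peak, since matching allows 200 bp. Of the 1189 divergent summits with a peak in every replicate list, 90 shared a replicate peak with another summit. Of the 1099 with replicate peaks of their own, 272 had ranks at least 2-fold apart. A second summit between CG6933 and CG17145, of pooled rank 2083, matched peaks of its own and ranked 21102, 4728 and 1428 in replicates 1, 2 and 3. The third summit between ATPCL and Tmem131, of pooled rank 4513, ranked 14293 in replicate 2 by a peak of its own, but its ranks of 316 and 251 in replicates 1 and 3 are those of peaks shared with a neighbouring summit. At FucTB and scat, the summit of rank 4827 ranked 21010 and 3554 in replicates 1 and 2, and its rank of 1016 in replicate 3 is likewise that of a shared peak.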

How the data were processed

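Peak lists of 3 biological replicates, a pooled list and a list thresholded by the irreproducible discovery rate were used as the authors deposited them, in dm6. Of the peak caller, aligner, threshold and read depth, each is not given in the sources used here, and the control alignment that the labels point to was not used here. The deposited signal is the value the authors' caller wrote for each peak, with no scale defined, so it served only to rank peaks within a list. The summit is the deposited start plus the deposited summit offset, which is in bp and is not a measurement of enrichment.

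Starts came from Ensembl release 115 of the Release 6 genome, and sequences from its RefSeq FASTA, with coordinates 1-based. Sequences were searched on both strands within 100 bp of the summit. Besides the 12-base su(Hw) consensus (exact, or with up to 1 mismatch) and its core, they were the CGATA pair and the binding sequences of DREF, M1BP, GAGA factor and Zelda. Fisher's exact tests on counts were two-sided and called at adjusted values under 0.05. Summits are not independent of each other, and the replicates measure the spread between these samples. Peak lists of 30000 have a fixed length. Scripts used Python 3.11.15, numpy 2.4.6, pandas 2.3.3 and scipy 1.17.1 and were tested on simulated data.

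The summits, gene lists, sequences and tests were chosen with earlier results of these data known. Named are the genes of the 15 strongest divergent summits, the strongest of each gene list and arm, those with most genes or the widest spread of ranks, and partners of su(Hw). Alternatives changed the promoter window, peak set, merging, starts, sequence window, matching distance and comparison genes, and left out each replicate in turn.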

Additional observations from a re-analysis of the deposited data

How the results depend on the processing

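The number of divergent summits was 1024 with a window of 500 bp upstream to 50 bp downstream, 1602 with 2000 and 500 bp, and 589 in the strongest 3064 peaks of the list. The odds ratio of genes with to genes without a divergent partner stayed between 3.03 and 4.57 and passed in all 10 alternatives tried. That of divergent to one-direction summits passed in 11 alternatives for the su(Hw) consensus (0.398 to 0.657), the CGATA pair (1.54 to 3.81) and TATCGATA (1.71 to 4.25). GGTCACAC lost its call within 50 bp of the summit (1.14, adjusted p = 0.628, Fisher's exact test) and among summits within 250 bp of a start (1.04), and kept it in the other 9. Asking that the starts of a pair do not cross moved no summit and is not counted among these. The share above the median strength, which did not pass at first (0.986), passed as lower in divergent summits with the window of 2000 and 500 bp (0.862, p = 0.0250, exact test) and in the strongest 3064 peaks (0.565, p = 9.11e-08, exact test). It also passed without a replicate, between 0.762 and 0.805. Such a set keeps thresholded peaks that are top-ranked in both other replicates (4586 to 4808 peaks), so it carries a filter on strength that the full list does not. Recovery in all 3 replicates passed as higher with the window of 500 and 50 bp (1.23, p = 0.0168, exact test) and in none of the other 7 alternatives. For the consensus in the strongest against the weakest divergent summits, the call was lost with the window of 500 and 50 bp (2.05, adjusted p = 0.0615, exact test) and without replicate 3 (1.72, adjusted p = 0.125, exact test; 1.72 to 2.26 without each replicate), and kept in the other 8 alternatives (1.63 to 3.91). The cause was not tested.

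No paired analysis was possible because the 3 replicates form 1 group. Depth is unknown, 2 genes of a pair share summits, and the peak lists cannot tell fewer bound cells from weaker binding per cell.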
